A study of Mus musculus with 9 samples.

Results

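The comparison sets 3 arrays from newborn mice without a wild-type copy of Prdm16 (Prdm16LacZ/LacZ, here KO) against 3 arrays from wild-type newborns (Prdm16+/+, WT), which are 6 of the 9 Affymetrix Mouse Gene ST 1.0 arrays of the series. The arrays were chosen by their titles, and the comparison runs over 19938 genes, each read by 1 probe set, that is, the group of probes on the array that reports 1 transcript. The other 3 arrays come from Prdm16LacZ/+ newborns (HET), which keep 1 wild-type copy. All mice were of the C57BL/Ka strain, and the tissue in every group was the ventricular zone of the brain, dissected and put into Trizol without culture or treatment. The labels name no Cre or tissue-limited allele, so the genotype applies to the whole animal. The labels do not say how many pups stand behind an array or whether the arrays of a genotype are separate litters. Each p-value therefore rests on how far these arrays spread, and part of that spread may be technical.

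PRDM16 is a zinc finger protein that binds DNA and recruits activating or repressing partners. It is best known for keeping brown fat cells and several kinds of stem cells in their state, and in the developing forebrain it is made by the radial glia that line the ventricle. Radial glia divide at the ventricle, give rise to neurons, and around birth turn into astrocytes and into ependymal cells, the multiciliated cells that later line the ventricle. Interneurons are born in the ventral forebrain and migrate through neighbouring zones, so a dissected strip of ventricular zone holds cells of several kinds. In such bulk RNA, fewer cells of a kind and less RNA per cell cannot be told apart.

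The dissected tissue carried its expected markers in both groups. On the log2 scale, on which 1 unit is a doubling, the radial glia genes Fabp7 and Slc1a3 had WT means of 11.87 and 10.34 and KO means of 11.79 and 10.22, high against array medians of 5.80 to 5.92. Ventral genes were present as well, with the interneuron progenitor gene Dlx1 at a WT mean of 10.31. Xist, the RNA of the inactive X chromosome, and the Y-linked gene Eif2s3y showed that the arrays did not hold the sexes alike. Xist was high in WT1, HET1, KO2 and KO3, at 10.04, 10.73, 10.50 and 11.002, and at most 4.99 in the others (WT1 is WT replicate 1, and so on). Eif2s3y was low in HET1 and KO3, at 4.03 and 4.36, and stood at 8.47 in WT1 and 6.85 in KO2, so these last arrays showed RNA of both sexes. With the Xist level as a covariate, 66 of the 90 genes called below were called again.

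Prdm16 itself was read at 7.62, 7.57 and 7.23 in WT, 6.995, 7.34 and 6.998 in HET and 5.69, 6.41 and 6.17 in KO. The highest KO array was under the lowest of the other 6, which fits the labels, and the transcript fell 2.61-fold (log2 change -1.38, SE 0.18, adjusted p = 0.01, n = 3 arrays per genotype). A KO mean of 6.09 is not a zero level, and whether the probes read RNA made from the LacZ allele was not tested. Prdm16 lost its call without WT1 or WT2 (adjusted p up to 0.076).

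Few genes were called in KO against WT, and more of the called genes fell than rose. With 3 arrays per genotype, a gene that was not called may still have changed. Of the 19938 genes, 90 were called (0.451%), 57 lower (0.286%) and 33 higher (0.166%) in KO, where a call is an adjusted p under 0.05 by limma with Benjamini-Hochberg adjustment. An unadjusted p under 0.05 was held by 3.28% of all genes above WT and by 2.87% below it, the shares to set beside such counts in gene lists. The lists were chosen with earlier results of these data known, so none of them is independent support. Falls were also larger at the extreme: 5 genes fell at least 3-fold and 1 rose that much, while the median size of a call was 1.87-fold among falls and 1.80-fold among rises. The 3 KO arrays lay wholly on one side of the 3 WT arrays for all 90 genes, as they did for 9.98% of all genes (4.34% with KO below WT and 5.63% with KO above). Most calls were of well-measured genes, with 17 rises and 29 falls in the upper of 3 equal bands of mean level, 14 and 21 in the middle band and 2 and 7 in the lowest, where background makes up more of a value. Leaving out WT1 or WT2 left 23 or 27 calls, and a fit of the 6 WT and KO arrays alone gave 33, of which 31 were among the 90. All 90 changes kept their direction in each of these fits. This was fixed in advance, since the WT and KO arrays of these genes do not overlap. The call was kept by 20 genes in every fit that left out 1 array, 18 of them also in every other setting tried. Lost calls given below for single genes refer to fits that left out 1 array, unless the HET arrays are named. Most of the 90 genes also lost their call in the fit of WT and KO arrays alone. That loss is named below for only some of them, so its absence does not mean that a call was kept there.

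**Figure D1:**
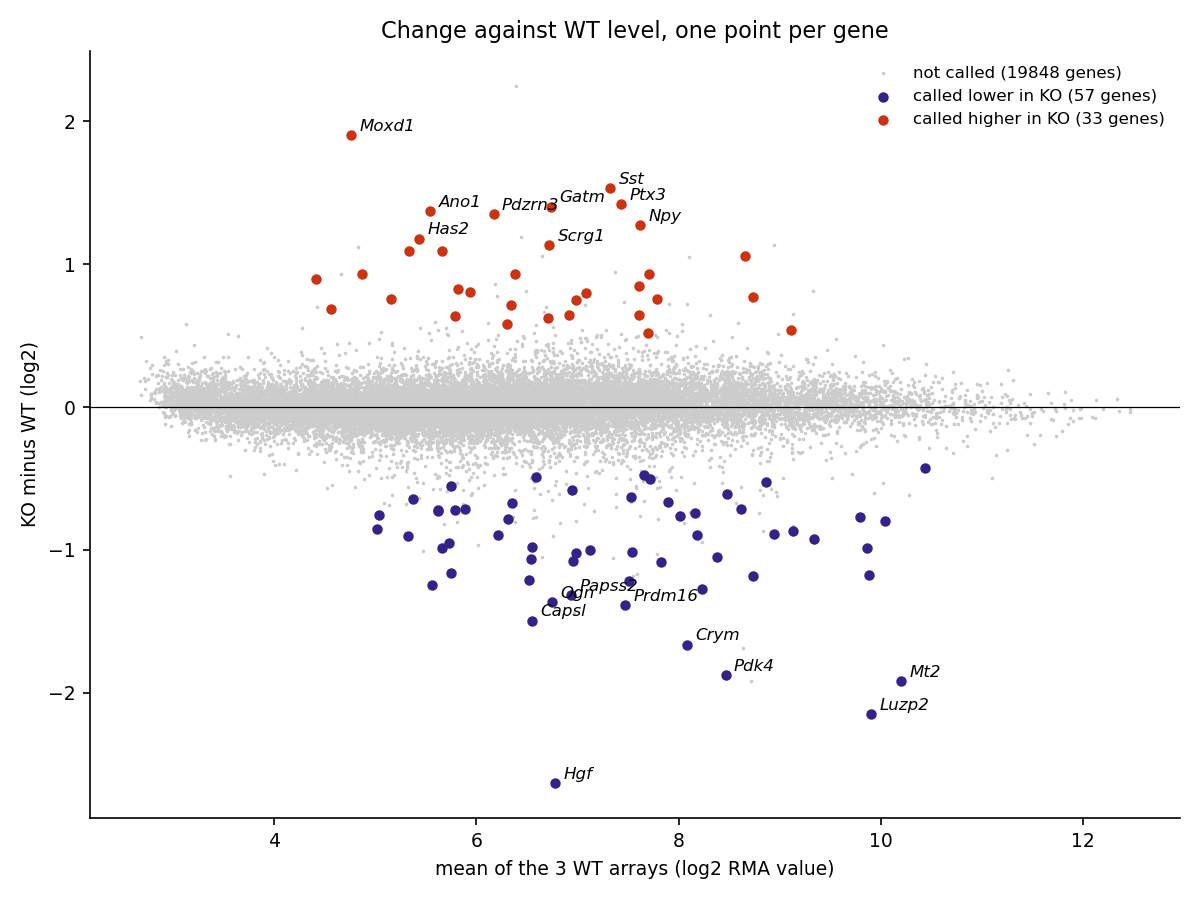
Each point is 1 of the 19938 genes, placed by its mean over the 3 WT arrays (x axis, log2 RMA value) and by its KO minus WT difference (y axis, log2), with the 57 called falls and 33 called rises in colour and the 9 largest of each named. Hgf lies lowest at -2.63 and Moxd1 at 1.90 highest of the called genes, and neither the dimmest nor the brightest WT means hold a called gene.

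The deepest fall was in a growth factor. Hgf, the ligand of the receptor tyrosine kinase Met, was read at 6.85, 6.81 and 6.68 in WT, 6.14, 6.57 and 6.12 in HET and 4.15, 4.20 and 4.09 in KO. The KO arrays were far below the others and within 0.053 (SD) of each other, at a level under the lower quartile of each of the 9 arrays, where a probe set may read only background. The fall was at least 4.49-fold when each KO value was raised to the lower quartile of its array, a bound used below for other genes as dim (measured log2 change -2.63, SE 0.12, adjusted p = 6.4e-06). This bound allows for background in the dim group only and leaves out the spread between arrays, so it is not a confidence limit. Of 14 genes of the HGF system, which also covers the proteases that activate HGF and their inhibitors, Hgf was the 1 call. Met lay at 3.75 in WT and 3.73 in KO, a level at which a change may go unseen, and Gab1, the adaptor that docks to Met, at a change of -0.22 (SE 0.12) without passing. Cacna2d1, an accessory subunit of calcium channels and the next measured protein-coding gene to Hgf in the genome, was read at 8.61, 7.82 and 8.27 in WT, 8.02, 7.76 and 7.65 in HET and 7.34, 6.50 and 7.03 in KO. It fell 2.42-fold (log2 change -1.28, SE 0.23, adjusted p = 0.047), and its other probe set read a change of -1.24. Hgf kept its call in each of the 9 fits that left out 1 array. Cacna2d1 lost its call whichever array was left out (adjusted p up to 0.24).

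Both widely expressed metallothioneins, small cysteine-rich proteins that bind zinc and copper, fell. Mt2 was read at 10.22, 10.21 and 10.18 in WT, 10.11, 10.07 and 10.02 in HET and 8.20, 8.10 and 8.55 in KO. The WT arrays agreed within 0.019 (SD) and the HET arrays lay just under them, with a HET mean -0.14 from WT, while KO fell 3.78-fold (log2 change -1.92, SE 0.11, adjusted p = 2.9e-05). Mt1 was read at 8.13, 7.96 and 7.96 in WT, 7.88, 7.91 and 7.94 in HET and 7.19, 7.19 and 7.38 in KO, again with no overlap, and fell 1.70-fold (log2 change -0.76, SE 0.084, adjusted p = 0.0039). Mt3, the metallothionein of neurons and astrocytes, lay at 8.03, 7.68 and 7.72 in WT against 7.72, 7.96 and 7.57 in KO, where the groups overlapped (log2 change -0.063, SE 0.13). Mtf1, the zinc-sensing factor that drives Mt1 and Mt2, lay at a change of 0.053 (SE 0.071), and no other of the 20 genes of metallothioneins and zinc handling was called. Mt2 and Mt1 kept their call in each of the 9 fits that left out 1 array. The coding sequences of Mt1 and Mt2 are alike, and whether their probes read each other was not tested.

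The 3 genes lie in one cluster, and their promoters are shown because the neighbours differed in response. Each run is the promoter stretch listed for the gene (RefSeq, GRCm38.p6, plus strand). Whether the main start of transcription lies within it was not tested. Matches to the 7-letter core of the metal response element, TGCNCNC on either strand, are in capitals.
Mt2 (chr8:94172368-94172667): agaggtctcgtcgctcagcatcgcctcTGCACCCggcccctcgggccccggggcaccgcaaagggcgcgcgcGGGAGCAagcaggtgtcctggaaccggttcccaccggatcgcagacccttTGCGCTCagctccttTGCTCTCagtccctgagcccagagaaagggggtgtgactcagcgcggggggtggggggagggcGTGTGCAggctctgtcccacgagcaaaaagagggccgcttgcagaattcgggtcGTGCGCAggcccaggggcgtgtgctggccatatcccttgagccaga
Mt1 (chr8:94178839-94179138): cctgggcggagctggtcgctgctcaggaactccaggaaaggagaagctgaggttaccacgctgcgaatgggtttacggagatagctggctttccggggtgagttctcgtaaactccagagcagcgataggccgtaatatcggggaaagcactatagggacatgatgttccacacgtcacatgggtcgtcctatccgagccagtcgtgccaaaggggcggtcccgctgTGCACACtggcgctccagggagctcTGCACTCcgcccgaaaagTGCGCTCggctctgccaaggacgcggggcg
Mt3 (chr8:94152357-94152656): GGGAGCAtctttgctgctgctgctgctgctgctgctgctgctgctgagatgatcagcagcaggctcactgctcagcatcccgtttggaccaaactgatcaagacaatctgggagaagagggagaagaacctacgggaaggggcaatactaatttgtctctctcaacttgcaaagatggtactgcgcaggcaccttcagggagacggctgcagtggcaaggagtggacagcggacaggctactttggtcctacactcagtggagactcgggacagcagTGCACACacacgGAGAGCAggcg
The Mt2 run held 6 matches, and those of Mt1 and Mt3 held 3 each. Matches outside the printed runs were not counted, so these numbers do not compare the whole promoters. At least 1 match stood in 51% of the 32851 promoters of the table, and 4 or more in 2.3%. In the stricter form TGCACNC or TGCGCNC, which 25.7% of promoters hold at least once, the matches numbered 4 in Mt2, 3 in Mt1 and 1 in Mt3. A match describes the letters and does not show that a factor binds there.

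Pdk4, Crym and Slco1c1, genes of fuel use and thyroid hormone handling, fell. Pdk4, the kinase that shuts off pyruvate dehydrogenase and so spares glucose, was read at 8.43, 8.56 and 8.41 in WT, 7.93, 8.19 and 8.02 in HET and 6.58, 6.64 and 6.56 in KO. The KO arrays lay within 0.042 (SD) of each other and 3.67-fold under WT (log2 change -1.87, SE 0.087, adjusted p = 6.4e-06), while Pdk1 and Pdk2 stood at a change of 0.041 and -0.038 and no other of the 13 measured genes of the complex and its regulators was called. Acadl, the long-chain acyl-CoA dehydrogenase, lay lowest of 16 genes of fatty acid oxidation, at a change of -0.67 (SE 0.14), without passing (adjusted p = 0.12). Crym, which binds thyroid hormone in the cytosol, was read at 7.85, 8.68 and 7.73 in WT, 7.52, 7.60 and 7.52 in HET and 6.28, 6.59 and 6.41 in KO. WT2 stood above the other WT arrays, yet all KO arrays were lower than any WT or HET array, a 3.16-fold fall (log2 change -1.66, SE 0.21, adjusted p = 0.0078). Slco1c1, the carrier that brings thyroxine into the brain, was read at 10.04, 9.91 and 9.70 in WT against 8.94, 8.44 and 8.75 in KO and fell 2.26-fold (log2 change -1.17, SE 0.18, adjusted p = 0.02). These were the 2 calls among 16 genes of thyroid hormone transport and action (0.451% of all genes were called). The list's median change was -0.13 against 0.006 over all genes. At an unadjusted p under 0.05, 5 of the 16 lay lower (2.87% of all genes did) and 1 higher (3.28%). The receptor gene Thra lay at a change of 0.31 (SE 0.10), the activating deiodinase gene Dio2 at a change of -0.23 (SE 0.093) and the hormone-responsive gene Klf9 at a change of -0.32 (SE 0.13), and none of them passed. Pdk4 and Crym kept their call in each of the 9 fits that left out 1 array. Slco1c1 lost its call whichever array was left out, except HET1, HET3 or KO1 (adjusted p up to 0.14). Neither Crym nor Slco1c1 was called when the HET arrays were left out of the fit.

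Pdk4, Mt1 and Mt2 also belong to a list of 19 measured glucocorticoid receptor and responsive genes, of which they were the 3 calls (0.451% of all genes were called). The list's median was 0.015, and 2 members had an unadjusted p under 0.05 above WT (3.28% of all genes) and 5 below it (2.87%). The receptor gene Nr3c1 lay at a change of -0.36 (SE 0.10, adjusted p = 0.37) and Nr3c2 at a change of 0.070 (SE 0.10). The brown fat programme that PRDM16 drives in adipocytes had 0 calls among 17 genes by limma and a median of 0.022, with Ppargc1a at a change of -0.38 (SE 0.15), Ucp1 at a change of -0.052 and Cidea at a change of 0.14; 1 member had an unadjusted p under 0.05 above WT and 2 below it.

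Single genes of cysteine, glutathione and selenium metabolism changed. Slc7a11, the cystine importer that feeds glutathione synthesis, was read at 5.98, 5.38 and 5.82 in WT, 5.39, 5.03 and 5.07 in HET and 4.56, 4.85 and 4.92 in KO and fell 1.93-fold (log2 change -0.95, SE 0.16, adjusted p = 0.038). Its HET mean had already moved -0.56 from WT, more than at most called genes. Mgst1, a membrane glutathione transferase, was read at 5.77, 5.83 and 5.37 in WT against 4.73, 4.52 and 4.76 in KO and fell 1.99-fold (log2 change -0.99, SE 0.12, adjusted p = 0.0078). Cdo1, the dioxygenase that breaks down cysteine, went the other way, read at 8.72, 8.86 and 8.41 in WT, 8.94, 9.42 and 9.14 in HET and 9.92, 9.34 and 9.90 in KO, a 2.08-fold rise (log2 change 1.06, SE 0.18, adjusted p = 0.038). Slc7a11 and Mgst1 were the 2 calls among 34 genes of glutathione, peroxide and superoxide defence (0.451% of all genes were called), and the list's median was -0.032. At an unadjusted p under 0.05, 7 of the 34 lay lower (2.87% of all genes did) and 0 higher (3.28%). The synthesis genes Gclc and Gclm lay at a change of -0.059 and -0.28, the regulator Nfe2l2 at a change of -0.44 (SE 0.12), and Sod1, Sod2 and Cat at a change of 0.055, 0.077 and -0.14, none of which passed. Selenop, the selenium carrier, fell as well, from 7.95, 8.01 and 7.73 in WT to 7.29, 7.21 and 7.20 in KO (log2 change -0.67, SE 0.090, adjusted p = 0.012). Slc7a11 lost its call whichever array was left out, except WT2 or HET1 (adjusted p up to 0.19). Mgst1 lost its call without WT1 (adjusted p up to 0.059), and also when the HET arrays were left out of the fit (adjusted p = 0.078). Cdo1 lost its call whichever array was left out, except HET1 or KO2 (adjusted p up to 0.18). Selenop lost its call without WT1, WT2 or KO3 (adjusted p up to 0.088).

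Other enzymes that fell handle sulfate, lipids and aldehydes. Papss2, which makes the activated sulfate used to sulfate proteoglycans, was read at 7.01, 7.02 and 6.80 in WT, 6.62, 6.77 and 6.62 in HET and 5.70, 5.41 and 5.76 in KO, with KO well apart, and fell 2.49-fold (log2 change -1.31, SE 0.11, adjusted p = 0.00046). Its sister enzyme gene Papss1 lay at a change of 0.076 (SE 0.10). Among 27 genes of sulfate transfer, Hs2st1, a heparan sulfate 2-O-sulfotransferase, rose from 7.68, 7.74 and 7.68 in WT to 8.24, 8.13 and 8.29 in KO (log2 change 0.52, SE 0.073, adjusted p = 0.015), and it was the 1 rise. Arsb, the lysosomal sulfatase that trims dermatan and chondroitin sulfate, rose from 7.09, 7.06 and 7.11 in WT to 7.98, 7.74 and 7.92 in KO (log2 change 0.80, SE 0.085, adjusted p = 0.0032), and its other probe set read 0.60. The remaining enzyme calls were Me1, malic enzyme, at a change of -0.58 (SE 0.10), Aldh9a1, an aldehyde dehydrogenase, at a change of -0.61 (SE 0.090), Fmo1, a flavin monooxygenase, at a change of -0.90 (SE 0.16), Cyp4f15, a cytochrome P450, at a change of -0.90 (SE 0.13), and P3h2, a collagen prolyl hydroxylase, at a change of -0.72 (SE 0.13). Plpp3, which dephosphorylates lysophospholipids, fell (change -0.77, SE 0.11) together with S1pr1, a receptor for sphingosine 1-phosphate (-0.50, SE 0.086), and Ddhd1, a phospholipase, rose (0.54, SE 0.079). Papss2 and Arsb kept their call in each of the 9 fits that left out 1 array. Hs2st1 lost its call without WT1, WT2, WT3, KO1 or KO3 (adjusted p up to 0.099). Plpp3 lost its call without WT1, WT2, KO1, KO2 or KO3 (adjusted p up to 0.099). Ddhd1 lost its call without WT1, WT2, WT3, KO1 or KO3 (adjusted p up to 0.097). Me1 lost its call whichever array was left out, except KO1 (adjusted p up to 0.23). Aldh9a1 lost its call whichever array was left out, except HET1, HET2 or HET3 (adjusted p up to 0.13). Fmo1 lost its call whichever array was left out, except HET2 (adjusted p up to 0.24). Cyp4f15 lost its call without WT1, WT2, KO1 or KO3 (adjusted p up to 0.11). P3h2 lost its call whichever array was left out (adjusted p up to 0.17). S1pr1 lost its call whichever array was left out (adjusted p up to 0.21).

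The matrix changed in both directions. Hyaluronan is a long sugar polymer that radial glia lay down and that link proteins and lecticans bind. Has2, its synthase, was read at 5.42, 5.42 and 5.46 in WT, 5.80, 5.75 and 5.64 in HET and 6.71, 6.38 and 6.75 in KO. The WT arrays were alike to within 0.020 (SD) and KO rose 2.26-fold (log2 change 1.18, SE 0.10, adjusted p = 0.0007). Ptx3, a pentraxin that stabilises hyaluronan matrices, was read at 7.62, 7.33 and 7.34 in WT, 7.66, 7.86 and 7.73 in HET and 8.86, 8.72 and 8.96 in KO and rose 2.67-fold (log2 change 1.42, SE 0.10, adjusted p = 0.00027). Hapln1, the link protein that ties lecticans to the polymer, fell from 4.92, 5.09 and 5.10 in WT to 4.38, 4.08 and 4.38 in KO (measured log2 change -0.75, SE 0.10, adjusted p = 0.012). Its KO arrays all lay under the lowest lower quartile, and the fall was at least 1.34-fold by the bound given for Hgf. These were the 3 calls among 20 genes of hyaluronan metabolism (0.451% of all genes were called), whose median was -0.046. At an unadjusted p under 0.05, 2 of the 20 lay higher (3.28% of all genes did) and 3 lower (2.87%). Has1 and Has3 lay at a change of 0.16 and -0.10, and Vcan, the large lectican, at a change of -0.53 (SE 0.11) without passing (adjusted p = 0.093). Veph1, a membrane-binding protein named for its expression in the ventricular zone and the next measured gene to Ptx3, rose from 6.05, 5.68 and 5.73 in WT to 6.45, 6.73 and 6.77 in KO (log2 change 0.83, SE 0.12, adjusted p = 0.017). Has2 and Ptx3 kept their call in each of the 9 fits that left out 1 array. Hapln1 lost its call without WT1, WT2 or WT3 (adjusted p up to 0.081). Veph1 lost its call without WT2, WT3, KO2 or KO3 (adjusted p up to 0.097).

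Basement membrane genes split likewise, with Nid1, the nidogen that bridges laminin and collagen, rising from 6.88, 6.93 and 6.95 in WT to 7.67, 7.53 and 7.49 in KO (log2 change 0.64, SE 0.083, adjusted p = 0.01) and Lama2, a laminin chain, falling from 6.43, 6.47 and 6.14 in WT to 5.67, 5.80 and 5.56 in KO (log2 change -0.67, SE 0.11, adjusted p = 0.038). No other of 24 such genes was called, and none of 44 collagen genes was called by limma, of which 1 had an unadjusted p under 0.05. Ogn, a small proteoglycan, was read at 6.96, 6.92 and 6.36 in WT, 6.55, 6.34 and 6.38 in HET and 4.99, 5.51 and 5.63 in KO, with WT3 and the HET arrays between the rest, and fell 2.58-fold (log2 change -1.37, SE 0.19, adjusted p = 0.012), the 1 call among 13 proteoglycans of its family. Ogn is also made by the meninges, and 13 of 20 meningeal and fibroblast genes, Ogn among them, lay below WT (47.3% of all genes did). The list's median was -0.061, and its mean level lay between 5.59 and 5.64 in WT and between 5.46 and 5.62 in KO. Of the defining genes, Col1a1 lay at a change of -0.092, Col1a2 at a change of -0.15, Lum at a change of -0.18 and Dcn at a change of 0.047, and the part of meningeal cells in the fall of Ogn was not tested. Egfl6, a secreted matrix protein, rose by 0.93 (SE 0.15) and Fat4, a giant protocadherin of radial glia, by 0.93 (SE 0.15), while the adhesion gene Alcam fell (change -0.89, SE 0.14). B3gnt2, which builds the sugar chains of glycoproteins, rose by 0.80 (SE 0.11). Nid1 lost its call without WT1 or WT2 (adjusted p up to 0.076). Lama2 lost its call whichever array was left out, except WT3 or HET1 (adjusted p up to 0.22). Ogn lost its call without WT1 or WT2 (adjusted p up to 0.087), and also when the HET arrays were left out of the fit (adjusted p = 0.12). Egfl6 lost its call whichever array was left out, except HET1 or KO2 (adjusted p up to 0.15). Fat4 lost its call whichever array was left out, except KO2 (adjusted p up to 0.17). Alcam lost its call whichever array was left out, except HET1 or HET3 (adjusted p up to 0.14). B3gnt2 lost its call without WT1, WT2 or WT3 (adjusted p up to 0.074).

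**Figure D2:**
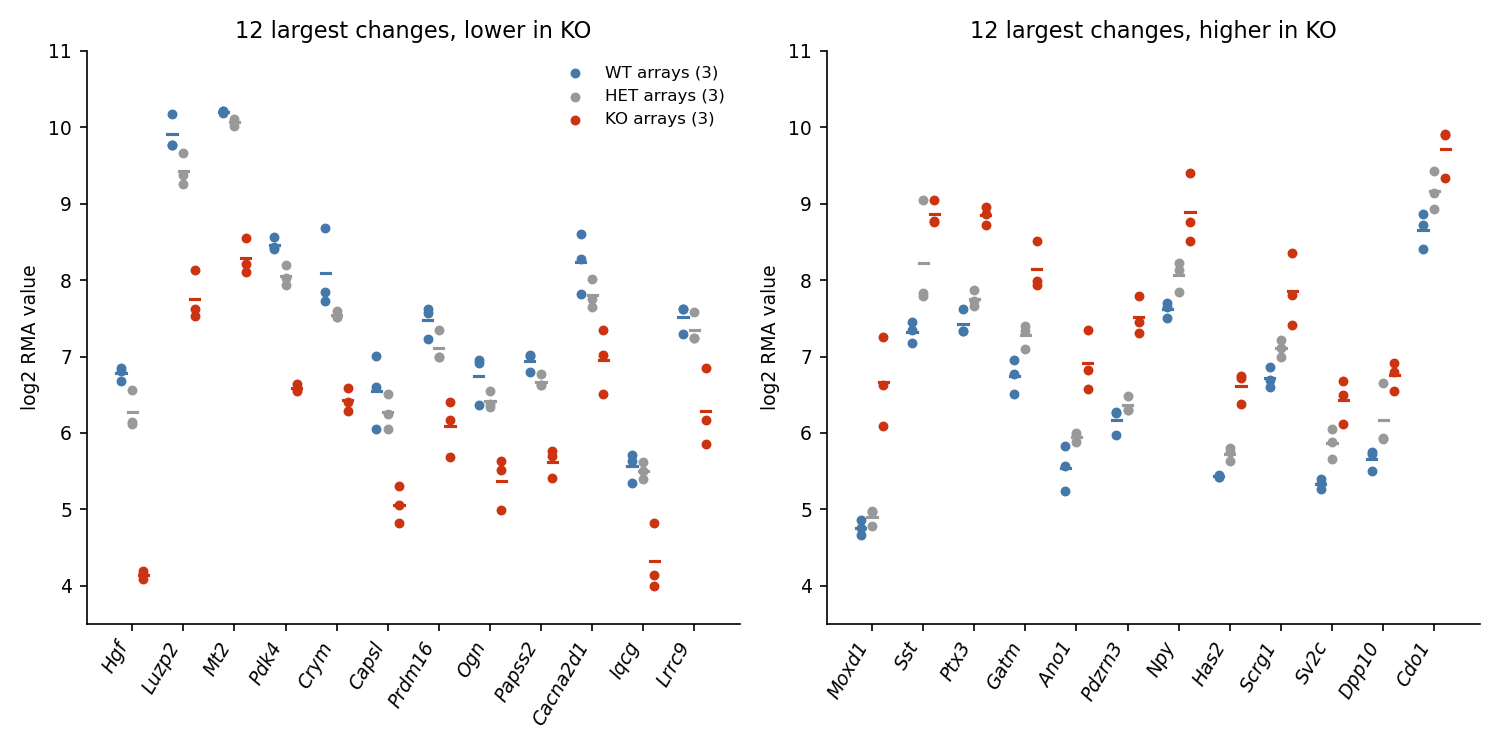
Each point is 1 array (WT, HET or KO, 3 each) and each short bar a genotype mean, on the log2 RMA scale, for the 12 genes that fell most (left) and the 12 that rose most (right) among calls in KO against WT. WT and KO points do not overlap for any of these genes, and Sst shows 1 HET array, at 9.04, at the KO level.

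The interneuron peptide genes Sst and Npy rose. Sst, the peptide somatostatin, was read at 7.18, 7.35 and 7.45 in WT, 7.83, 7.79 and 9.04 in HET and 9.05, 8.78 and 8.76 in KO. HET3 stood with the KO arrays and the other HET arrays nearer to WT, and KO rose 2.90-fold (log2 change 1.53, SE 0.27, adjusted p = 0.047). Npy, neuropeptide Y, which many somatostatin cells also make, was read at 7.51, 7.69 and 7.65 in WT, 8.22, 7.85 and 8.13 in HET and 9.40, 8.51 and 8.76 in KO and rose 2.42-fold (log2 change 1.27, SE 0.19, adjusted p = 0.02). In the Sst promoter (RefSeq, GRCm38.p6, minus strand) the cAMP response element, TGACGTCA, stands in capitals, shown because this element is the textbook switch of the gene.
Sst (chr16:23890795-23891094): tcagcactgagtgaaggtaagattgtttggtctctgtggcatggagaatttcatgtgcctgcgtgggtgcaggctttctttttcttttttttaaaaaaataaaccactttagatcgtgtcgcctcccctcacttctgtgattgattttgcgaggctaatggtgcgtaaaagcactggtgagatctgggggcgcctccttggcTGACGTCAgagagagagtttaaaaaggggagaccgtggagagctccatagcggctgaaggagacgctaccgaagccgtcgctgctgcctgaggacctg
This motif, searched on both strands, stood in 1.79% of the 32851 promoters and in 1 of the 92 promoters listed for called genes, that of Sst. Npy lost its call without WT1, WT2, WT3 or KO3 (adjusted p up to 0.14), and also when the HET arrays were left out of the fit. Sst lost its call whichever array was left out, except HET3 (adjusted p up to 0.26).

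The 2 peptides stood at the head of a list of 23 measured interneuron genes that lay higher in KO. 2 members were called and 9 of 23 had an unadjusted p under 0.05, all 9 higher in KO, against 3.28% of all genes in that direction. The list's median change was 0.38 against 0.006 over all genes. The others of these 9 were Erbb4, the neuregulin receptor of migrating interneurons, at a change of 0.81 (SE 0.19), the receptors Cxcr4 and Ackr3 for the guidance chemokine CXCL12, at a change of 0.49 (SE 0.14) and 0.45 (SE 0.11), and the medial ganglionic eminence regulators Lhx6, Maf and Sox6, at a change of 0.72 (SE 0.18), 0.40 (SE 0.12) and 0.42 (SE 0.15). The secreted synaptic ligand Nxph1 lay at a change of 0.94 (SE 0.30), and none of these but Sst and Npy passed. Genes of later or other interneuron kinds lay near 0, with Pvalb at a change of -0.015, Vip at a change of 0.016 and Cck at a change of -0.048, all dim on these arrays. By array, the list's mean level was 6.04, 6.05 and 6.06 in WT, 6.22, 6.16 and 6.39 in HET and 6.57, 6.39 and 6.31 in KO. The median member of KO3 stood only 0.030 above the WT mean, against 0.32 in KO1, and the peptide gene Tac1 was read at 5.61, 4.94 and 4.06 in KO against 4.40, 4.65 and 4.45 in WT, below WT in KO3, and without KO1 the list's median was 0.21. Lhx6 and other members were known from earlier results on these arrays to lie higher, so the list is no independent support.

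Progenitor genes of the ventral forebrain held no call, with 0 of 16 called by limma, 2 higher and 2 lower at an unadjusted p under 0.05 and a median of 0.056. Dlx1 lay at a change of 0.20 (SE 0.12) and Gad1, which makes GABA, at a change of 0.24 (SE 0.086). Cortical neurons had 0 calls among 21 genes (median 0.019; 2 higher and 2 lower at an unadjusted p under 0.05), with the deep-layer regulator Tbr1 lowest at a change of -0.66 (SE 0.13) and the filament gene Nefm highest at a change of 0.44 (SE 0.11). Intermediate progenitors of the cortex had 0 calls among 12, with 2 below WT at an unadjusted p under 0.05, Eomes at a change of -0.32 (SE 0.11) and Neurog1 at a change of -0.31 (SE 0.094), and Neurog2 at a change of 0.031.

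Receptors and vesicle proteins of neurons gave further rises. Gria1, an AMPA receptor subunit, was read at 8.71, 8.71 and 8.79 in WT against 9.69, 9.47 and 9.36 in KO (log2 change 0.77, SE 0.10, adjusted p = 0.0083) and Grin3a, an NMDA receptor subunit, at 5.15, 5.06 and 5.27 in WT against 6.06, 5.95 and 5.74 in KO (log2 change 0.76, SE 0.10, adjusted p = 0.012). These were the 2 calls among 16 glutamate receptor genes (0.451% of all genes were called), whose median was 0.11. At an unadjusted p under 0.05, 3 of the 16 lay higher (3.28% of all genes did) and 0 lower (2.87%). The median member stood 0.25 above the WT mean in KO1, 0.16 in KO2 and 0.02 in KO3. The list held 0 calls without WT1 and 0 in the fit of WT and KO arrays alone. The kainate receptor gene Grik3 lay at a change of 0.73 (SE 0.19) without passing, and Gria2, Gria3 and Gria4 at a change of 0.067, -0.49 and 0.24. Sv2c, a synaptic vesicle glycoprotein, was read at 5.27, 5.34 and 5.40 in WT, 5.66, 5.88 and 6.05 in HET and 6.68, 6.50 and 6.11 in KO and rose 2.13-fold (log2 change 1.09, SE 0.14, adjusted p = 0.01), the 1 call among 25 vesicle genes, with Sv2a at a change of 0.49 and Sv2b at a change of -0.30. Cadps2, which primes dense-core vesicles for release, rose by 0.69 (SE 0.12). Gria1 lost its call without WT1 or WT2 (adjusted p up to 0.064). Grin3a lost its call without WT1, WT2, KO1 or KO2 (adjusted p up to 0.086). Sv2c lost its call without WT1, WT2 or KO2 (adjusted p up to 0.076). Cadps2 lost its call whichever array was left out, except KO1 (adjusted p up to 0.2).

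Single genes of several ion channel families changed. Ano1, a calcium-activated chloride channel, was read at 5.24, 5.83 and 5.56 in WT, 5.88, 5.96 and 6.003 in HET and 6.58, 7.35 and 6.83 in KO and rose 2.59-fold (log2 change 1.37, SE 0.19, adjusted p = 0.013), the 1 call among 9 anoctamins. Dpp10, an accessory subunit of Kv4 potassium channels, was read at 5.75, 5.50 and 5.73 in WT, 5.94, 5.92 and 6.65 in HET and 6.79, 6.55 and 6.92 in KO. HET3 reached the KO range, and KO rose 2.13-fold (log2 change 1.09, SE 0.18, adjusted p = 0.036). Kcnip3, another Kv4 partner, fell from 7.67, 7.69 and 7.63 in WT to 7.12, 7.27 and 7.16 in KO (log2 change -0.48, SE 0.079, adjusted p = 0.032), the 1 call among 91 potassium channel genes. At an unadjusted p under 0.05, 3 of the 91 lay higher (3.28% of all genes did) and 8 lower (2.87%). Of 24 calcium channel genes, Cacna2d1 was the 1 call (0.451% of all genes were called), and the AMPA receptor partners Cacng2 and Cacng3, named in that family, lay at a change of 0.58 (SE 0.11) and 0.70 (SE 0.19). Of these 24, 4 lay higher and 1 lower at an unadjusted p under 0.05. Neither 11 sodium channel genes nor 21 GABA and glycine receptor genes held a call by limma; the lowest of the latter was Gabrg1, a receptor subunit of glia and some neurons, at a change of -1.01 (SE 0.25). An unadjusted p under 0.05 was found for 0 sodium channel genes and, among the receptor genes, for 2 higher and 3 lower in KO. Ano1 lost its call without WT1, WT3 or KO3 (adjusted p up to 0.081), and also when the HET arrays were left out of the fit (adjusted p = 0.13). Dpp10 lost its call whichever array was left out, except HET1 or HET3 (adjusted p up to 0.2). Kcnip3 lost its call whichever array was left out, except HET1, HET3 or KO2 (adjusted p up to 0.18).

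Astrocyte genes lay lower in KO, and 3 of them fell. Clu, a secreted chaperone, was read at 8.41, 8.54 and 8.18 in WT, 8.34, 8.59 and 8.10 in HET and 7.52, 7.19 and 7.26 in KO and fell 2.07-fold (log2 change -1.05, SE 0.14, adjusted p = 0.012). Aqp4, the water channel of astrocyte endfeet and ependyma, was read at 7.25, 6.81 and 6.89 in WT against 5.67, 6.22 and 5.99 in KO (log2 change -1.02, SE 0.17, adjusted p = 0.033), and Apoe, the lipid carrier that astrocytes secrete, at 9.09, 9.23 and 9.07 in WT against 8.25, 8.28 and 8.27 in KO (log2 change -0.86, SE 0.11, adjusted p = 0.009). HET arrays of Apoe lay at 9.35, 9.47 and 9.02, 2 of them above all WT arrays. These were the 3 calls among 22 astrocyte genes; 12 had an unadjusted p under 0.05, all lower, against 2.87% of all genes in that direction, and the median was -0.29. Slc1a2, the glutamate transporter, lay at a change of -0.62 (SE 0.12), Gja1, connexin 43, at a change of -1.03 (SE 0.21), Mlc1, a membrane protein of endfeet, at a change of -0.87 (SE 0.19), Glul, glutamine synthetase, at a change of -0.62 (SE 0.14), and Aldoc, an aldolase, at a change of -0.60 (SE 0.15), and none of these passed. Gfap, the filament of mature astrocytes, lay at a change of -0.31 (SE 0.11) from a dim WT mean of 4.97, while Aldh1l1 lay at a change of 0.21 (SE 0.12), and S100b, Fgfr3, Slc4a4 and Atp1b2 between -0.048 and 0.066. The list's mean level was between 7.47 and 7.60 in WT and between 7.12 and 7.24 in KO, without overlap. Since the list was chosen with earlier results of these data known, it is no independent support. Apoe lost its call without WT1 or WT2 (adjusted p up to 0.063). Clu lost its call without WT1, WT2, KO2 or KO3 (adjusted p up to 0.084). Aqp4 lost its call whichever array was left out, except HET2 or KO2 (adjusted p up to 0.17).

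Radial glia genes gave 1 call among 26 and a median of -0.078. That call, Fam107a, an actin-binding protein known as a marker of outer radial glia in primates and of astrocytes, was read at 6.90, 6.89 and 7.09 in WT, 6.92, 6.80 and 6.80 in HET and 5.91, 5.86 and 5.88 in KO. KO stood apart and tight (SD 0.025), 2.11-fold below WT (log2 change -1.08, SE 0.080, adjusted p = 0.00027). Of the rest, Prom1, Lhx2, Ptprz1, Pax6 and Pdpn had an unadjusted p under 0.05, at a change of -0.57, -0.42, -0.30, -0.41 and -0.29, and none lay higher at that level. Sox2, Nes, Vim, Hes1 and Hes5, stem cell genes, lay at a change of 0.22, 0.11, 0.17, 0.013 and 0.042. Other falls were of genes at home in glia or broadly made in brain. Luzp2, a leucine zipper protein, was read at 10.18, 9.77 and 9.77 in WT, 9.25, 9.66 and 9.38 in HET and 7.62, 7.53 and 8.13 in KO and fell 4.43-fold (log2 change -2.15, SE 0.17, adjusted p = 0.00046), and Fxyd1, phospholemman, a regulator of the sodium pump, was read at 7.79, 7.96 and 7.72 in WT against 6.75, 6.73 and 6.74 in KO (log2 change -1.09, SE 0.10, adjusted p = 0.00082). Fam107a, Luzp2 and Fxyd1 kept their call in each of the 9 fits that left out 1 array.

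Genes of motile cilia lay lower almost throughout. Of 38 ependymal and cilia genes, 35 had a KO mean below WT (47.3% of all genes did), 17 had an unadjusted p under 0.05, all lower (2.87% of all genes), and the median was -0.20. This list too was chosen with earlier results of these data known and is no independent support. Capsl, a calcium-binding EF-hand protein, was the 1 call of the list, read at 6.60, 7.01 and 6.05 in WT, 6.51, 6.24 and 6.05 in HET and 4.82, 5.30 and 5.06 in KO, with WT arrays that themselves spread widely (log2 change -1.49, SE 0.22, adjusted p = 0.018). Other calls, outside the list, are of proteins with known places in cilia. Iqcg, of the complex that regulates dynein in the axoneme, was read at 5.64, 5.72 and 5.34 in WT, 5.50, 5.63 and 5.39 in HET and 4.82, 4.14 and 4.004 in KO and fell 2.37-fold (log2 change -1.24, SE 0.19, adjusted p = 0.02), Nme5, a radial spoke protein, at 7.57, 7.56 and 7.48 in WT against 7.02, 6.18 and 6.39 in KO (log2 change -1.01, SE 0.17, adjusted p = 0.039), and Kif27, a kinesin of motile cilia, at 5.44, 5.82 and 5.61 in WT against 5.03, 4.79 and 4.88 in KO (log2 change -0.72, SE 0.11, adjusted p = 0.018). The KO arrays were uneven: Cfap44 was read at 6.98, 6.63 and 5.65 in KO against 7.64, 7.54 and 7.58 in WT, and Cfap54 at 7.04, 6.39 and 5.44 against 7.63, 7.27 and 7.15, lowest in KO3 both times, with changes of -1.17 (SE 0.34) and -1.06 (SE 0.32) that did not pass. The master regulators of the lineage lay near WT, Foxj1 at a change of -0.11 (SE 0.082), Mcidas at a change of -0.062 (SE 0.076), Gmnc at a change of 0.049 (SE 0.076) and Ccno at a change of -0.012 (SE 0.11), with Myb at a change of -0.33 (SE 0.11) and Rfx3 at a change of -0.31 (SE 0.11), none of them called. Foxj1 had means of 5.55 in WT and 5.44 in KO, under the array medians of 5.80 to 5.92. In the list, 5 of 38 members lay under the lowest lower quartile in all WT and KO arrays, where a change may go unseen. Capsl lost its call without WT1, WT2, HET2, KO1 or KO3 (adjusted p up to 0.12). Iqcg lost its call whichever array was left out, except HET1, HET3 or KO1 (adjusted p up to 0.13). Nme5 lost its call whichever array was left out, except KO1 (adjusted p up to 0.21). Kif27 lost its call without WT2, WT3, KO2 or KO3 (adjusted p up to 0.093).

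**Figure D3:**
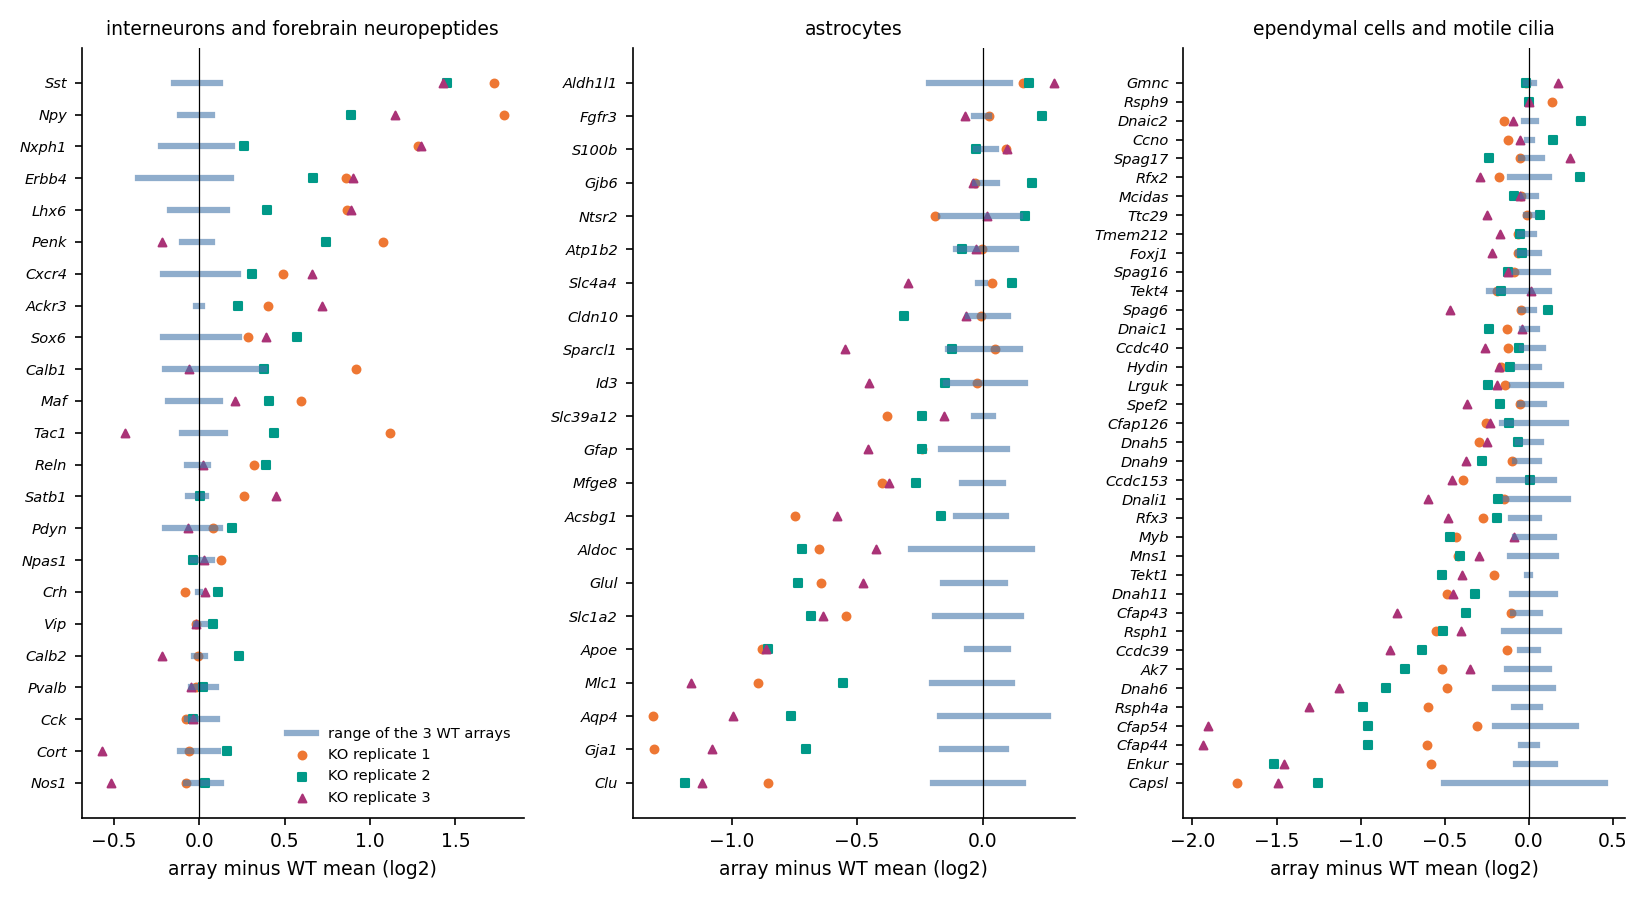
For the interneuron, astrocyte and ependymal lists, each row is a gene, the blue bar spans the 3 WT arrays around their mean, and the symbols are the 3 KO arrays, as log2 differences from the WT mean (x axis). Sst and Npy lie to the right of the WT bar in all KO arrays, and most cilia genes to the left of 0, with KO3 lowest for Cfap44 and Cfap54.

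Several further falls are of little-known genes. Lrrc9, a leucine-rich repeat protein, was read at 7.62, 7.62 and 7.29 in WT, 7.24, 7.58 and 7.24 in HET and 6.86, 6.17 and 5.86 in KO, with KO1 nearest to WT, and fell 2.33-fold (log2 change -1.22, SE 0.22, adjusted p = 0.047). Ccdc190 was read at 6.42, 6.51 and 6.65 in WT, 5.98, 6.07 and 5.80 in HET and 5.29, 5.30 and 5.35 in KO, an even step from WT to HET to KO in which HET made up 47.3% of the KO change (log2 change -1.21, SE 0.091, adjusted p = 0.00027). Ppp1r36, a regulatory subunit of protein phosphatase 1, was read at 5.88, 5.85 and 5.50 in WT against 4.65, 4.55 and 4.54 in KO (log2 change -1.16, SE 0.11, adjusted p = 0.0011). The kinase gene Map3k19 changed by -1.0002 (SE 0.17), Lrriq1 by -0.78 (SE 0.14), Ccdc60 by -0.64 (SE 0.10), Fam171b by -0.80 (SE 0.084) and Tmem243 by -0.63 (SE 0.086). Fam216b fell by at least 1.33-fold by the bound given for Hgf, since all its KO arrays lay under the lowest lower quartile (measured log2 change -0.86). Ccdc190, Ppp1r36 and Fam171b kept their call in each of the 9 fits that left out 1 array. Fam216b lost its call without WT1, WT2, KO1 or KO2 (adjusted p up to 0.081). Tmem243 lost its call without WT1, WT3 or KO1 (adjusted p up to 0.086). Ccdc60 lost its call whichever array was left out, except HET1, HET2 or HET3 (adjusted p up to 0.15). Lrriq1 lost its call whichever array was left out, except WT3 or HET1 (adjusted p up to 0.24). Lrrc9 lost its call whichever array was left out, except KO1 (adjusted p up to 0.26). Map3k19 lost its call whichever array was left out (adjusted p up to 0.22). A count of 1 predicted or clone gene was also called lower.

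Signalling and growth genes changed one at a time. Plagl1, an imprinted zinc finger gene that restrains growth, was read at 8.80, 8.75 and 8.66 in WT, 8.25, 8.25 and 8.21 in HET and 7.39, 7.46 and 7.81 in KO and fell 2.27-fold (log2 change -1.18, SE 0.11, adjusted p = 0.00082), the 1 call among 22 imprinted genes, with Igf2 at a change of -0.11 and Cdkn1c at a change of 0.24. Htra1, a secreted protease that cleaves IGF-binding and matrix proteins, fell from 6.60, 6.59 and 6.43 in WT to 5.55, 5.25 and 5.62 in KO (log2 change -1.07, SE 0.13, adjusted p = 0.0075), and Igfbp5, an IGF-binding protein, rose from 6.40, 6.30 and 6.32 in WT to 7.11, 6.85 and 7.19 in KO (log2 change 0.71, SE 0.12, adjusted p = 0.032). Lifr, the LIF receptor, rose from 6.58, 6.29 and 6.26 in WT to 7.48, 6.99 and 7.45 in KO (log2 change 0.93, SE 0.14, adjusted p = 0.018), while its partner gene Il6st lay at a change of -0.38 (SE 0.12) and Stat3 at a change of 0.37 (SE 0.13), neither called. Lrig1, which restrains the EGF receptor and marks resting stem cells, rose from 6.21, 6.33 and 6.37 in WT to 6.91, 6.90 and 6.85 in KO (log2 change 0.58, SE 0.079, adjusted p = 0.012), with Egfr at a change of 0.29 (SE 0.13). Of 19 genes of EGF receptor signalling, 6 lay higher at an unadjusted p under 0.05 (3.28% of all genes did), and Lrig1 was the 1 call (0.166% of all genes were called higher). The guidance cues that rose were Draxin by 0.62 (SE 0.10) and Rgma by 0.75 (SE 0.11), but none of 67 genes of the semaphorin, ephrin, netrin and slit systems was called by limma, of which 9 lay higher and 2 lower at an unadjusted p under 0.05 (3.28% and 2.87% of all genes). Plagl1 kept its call in each of the 9 fits that left out 1 array. Htra1 lost its call without WT1 or WT2 (adjusted p up to 0.058). Igfbp5 lost its call whichever array was left out, except HET2, HET3 or KO2 (adjusted p up to 0.18). Lifr lost its call without WT2, WT3, HET2, KO1 or KO3 (adjusted p up to 0.11). Lrig1 lost its call without WT1, WT2 or KO1 (adjusted p up to 0.086). Draxin lost its call whichever array was left out, except HET1 or KO2 (adjusted p up to 0.16). Rgma lost its call without WT1, WT3, KO1, KO2 or KO3 (adjusted p up to 0.12).

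Pathways that set progenitor behaviour held no call by limma: Notch (21 genes, 1 higher and 0 lower at an unadjusted p under 0.05, Notch1 at a change of 0.012 and Dll1 at a change of 0.20 (SE 0.082)), TGF-beta and BMP (33 genes, 1 and 2, Bmp6 at a change of -0.31 (SE 0.093) and Bmp7 at a change of -0.27 (SE 0.081)), Wnt (31 genes, 2 and 4, Tnfrsf19 at a change of -0.47 (SE 0.11)) and FGF (26 genes, 0 and 0). The cell cycle list, with 0 of 27 called, had KO arrays on both sides of the WT arrays. Its mean level was 7.58, 7.69 and 8.03 in KO and 7.78, 7.71 and 7.63 in WT, so KO3 stood highest of all, and the list's median of 0.069 became -0.050 without KO3 and 0.16 without KO1. Mki67, the proliferation antigen, lay at a change of -0.023 (SE 0.16) and Top2a at a change of -0.16 (SE 0.13). Cell cycle inhibitors, p53 targets and apoptosis genes had 0 of 21 called and a median of 0.0070, with Cdkn1c at a change of 0.24 (SE 0.089). Respiratory chain genes (78, median 0.015), ribosomal protein genes (63, median 0.038) and immediate early genes (18, median 0.083) held no call either, with 2, 1 and 1 members at an unadjusted p under 0.05.

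Marker lists of other cell types in the dissection had median changes near 0. Microglia genes (17, median 0.068) had a mean level between 5.83 and 5.87 in WT and between 5.82 and 5.96 in KO, endothelial and pericyte genes (19, median 0.0020) between 6.07 and 6.09 in WT and between 6.01 and 6.15 in KO, and oligodendrocyte lineage genes (15, median 0.026) between 5.66 and 5.75 in WT and between 5.71 and 5.79 in KO, and limma called 0 of each list, with 0, 1 and 3 members at an unadjusted p under 0.05. Over all genes, 6.15% had such a p. The 3 oligodendrocyte lineage members were Ugt8a at a change of 0.44 (SE 0.12), Pdgfra at a change of 0.27 (SE 0.10) and Cnp at a change of -0.43 (SE 0.15). In that list, KO and WT arrays did not overlap for 6 of 15 genes, against 9.98% of all genes. Choroid plexus genes (16, median -0.021) had a mean level between 5.43 and 5.46 in WT and between 5.41 and 5.59 in KO. The 1 call among them was F5, clotting factor V, read at 4.43, 4.32 and 4.50 in WT, 4.51, 4.17 and 4.27 in HET and 5.39, 5.33 and 5.20 in KO, out of a WT level below the lower quartile of every array, a rise of at least 1.60-fold by the bound given for Hgf (measured log2 change 0.89, SE 0.10, adjusted p = 0.0051). Ttr, the hallmark gene of choroid plexus, lay at a change of -0.39 (SE 0.52) and Otx2 at a change of 0.26 (SE 0.16), and neither was called. Red blood cell genes (7 measured, median -0.042) and genes of midbrain, hindbrain and thalamus (15, median 0.017) held 0 calls by limma and 0 members at an unadjusted p under 0.05. F5 kept its call in each of the 9 fits that left out 1 array.

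**Figure D4:**
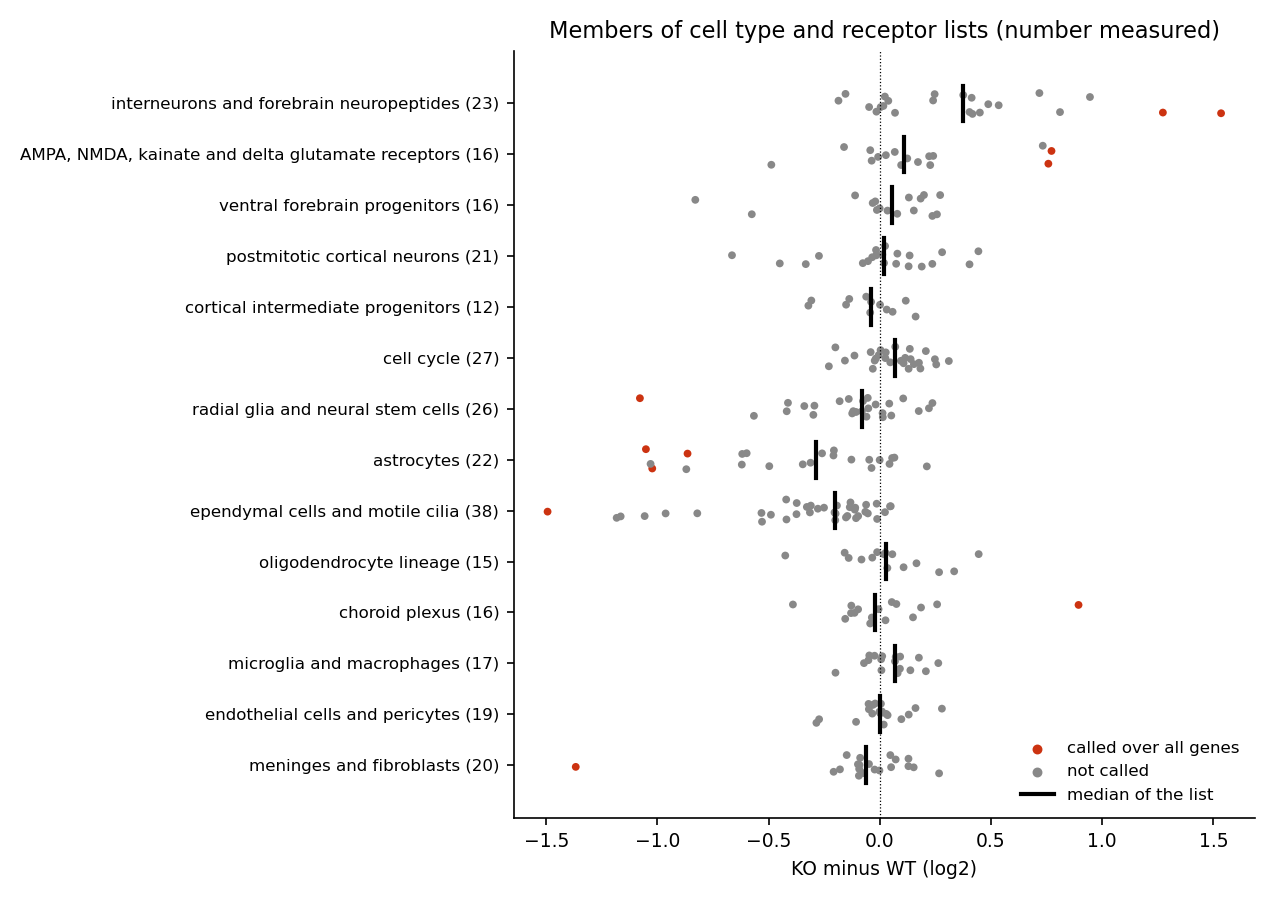
Each point is a measured member of a gene list (rows, with the number measured), placed by its KO minus WT difference (x axis, log2), coloured where called over all genes, and the black bar is the list's median. Among the 14 lists drawn, the interneuron list has the highest median, 0.375, and the astrocyte and ependymal lists the lowest, -0.286 and -0.202, while the other medians lie nearer to 0.

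Rises of single enzymes and adaptors complete the set. Moxd1, a copper-dependent monooxygenase, was read at 4.66, 4.76 and 4.86 in WT, 4.79, 4.96 and 4.97 in HET and 6.10, 6.62 and 7.26 in KO. The KO arrays spread widely, from 6.10 to 7.26, all above the rest, and the 3.73-fold rise was the largest among called genes (log2 change 1.90, SE 0.23, adjusted p = 0.006); of 12 genes of copper handling it was the 1 call, with the plasma ferroxidase gene Cp at a change of 0.53 (SE 0.16). Gatm, the first enzyme of creatine synthesis, was read at 6.51, 6.95 and 6.77 in WT, 7.34, 7.39 and 7.10 in HET and 8.51, 7.93 and 7.99 in KO and rose 2.64-fold (log2 change 1.40, SE 0.16, adjusted p = 0.0053), while Gamt, the second enzyme, lay at a change of -0.016 (SE 0.10) and the creatine transporter gene Slc6a8 at a change of 0.10 (SE 0.076). Pdzrn3, a ubiquitin ligase of synapses and vessels, was read at 6.27, 6.27 and 5.97 in WT, 6.30, 6.30 and 6.49 in HET and 7.46, 7.31 and 7.79 in KO and rose 2.55-fold (log2 change 1.35, SE 0.13, adjusted p = 0.0015). Scrg1, a small secreted protein, was read at 6.87, 6.70 and 6.60 in WT, 6.99, 7.11 and 7.21 in HET and 7.80, 7.41 and 8.36 in KO, with KO2 lowest and KO3 highest of the KO arrays, and rose 2.20-fold (log2 change 1.14, SE 0.19, adjusted p = 0.038). Gatm and Pdzrn3 kept their call in each of the 9 fits that left out 1 array. Moxd1 lost its call without WT1 (adjusted p up to 0.051). Scrg1 lost its call whichever array was left out, except KO2 or KO3 (adjusted p up to 0.19). When the HET arrays were left out of the fit, none of Moxd1 (adjusted p = 0.08), Gatm (0.062) and Scrg1 (0.21) was called.

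The remaining rises were of Npas3, a bHLH-PAS transcription factor of the developing brain (0.76, SE 0.13, its other probe set 0.51), Tril, a partner of Toll-like receptor 4 (0.64, SE 0.10), the scaffold gene Iqgap2 (0.65, SE 0.11) and Minar2 (0.85, SE 0.14). The remaining falls were of Pmp22, a membrane protein of myelin and other cells (-0.99, SE 0.15), the actin bundler Pls1 (-0.98, SE 0.14), Fstl5, a follistatin-like secreted protein (-0.93, SE 0.16), Cspg5, a neural proteoglycan (-0.74, SE 0.11), Dtna, dystrobrevin alpha of the dystrophin complex (-0.71, SE 0.13), and Cst3, the protease inhibitor cystatin C (-0.43, SE 0.073). Further falls were of Gucy2f, a guanylate cyclase (-0.90, SE 0.10), Dapp1, a phosphoinositide-binding adaptor (-0.72, SE 0.12), Sirpa, an inhibitory receptor (-0.52, SE 0.081), Cd82, a tetraspanin (-0.49, SE 0.085), and Fbxo2, an F-box protein for glycoproteins (-0.73, SE 0.11). Gucy2f kept its call in each of the 9 fits that left out 1 array. Pls1 lost its call without WT1, WT2, WT3 or KO1 (adjusted p up to 0.099). Cspg5 lost its call without WT1, WT2, KO2 or KO3 (adjusted p up to 0.11). Pmp22 lost its call without WT1, WT2, HET2, KO1 or KO2 (adjusted p up to 0.14). Fbxo2 lost its call without WT1, WT2, WT3, KO1 or KO3 (adjusted p up to 0.12). Sirpa lost its call whichever array was left out, except HET1 or HET3 (adjusted p up to 0.15). Tril lost its call whichever array was left out, except HET1 or KO3 (adjusted p up to 0.16). Minar2 lost its call whichever array was left out, except WT2 or HET1 (adjusted p up to 0.18). Npas3 lost its call whichever array was left out, except HET1 or HET3 (adjusted p up to 0.19). Fstl5 lost its call whichever array was left out, except HET1 or HET2 (adjusted p up to 0.2). Iqgap2 lost its call whichever array was left out, except KO3 (adjusted p up to 0.18). Dapp1 lost its call whichever array was left out, except KO1 (adjusted p up to 0.19). Cd82 lost its call whichever array was left out, except KO2 (adjusted p up to 0.23). Dtna lost its call whichever array was left out, except WT3 (adjusted p up to 0.23). Cst3 lost its call whichever array was left out (adjusted p up to 0.21).

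HET samples, which keep 1 allele, had means between those of WT and KO for most of these genes. On the KO side of the WT mean stood the HET mean of 50 of 57 falls and 30 of 33 rises, and its median share of the KO change was 19.1% among falls and 30.8% among rises. All 3 HET arrays lay between the outermost WT and KO arrays for 47 falls and 30 rises. That span takes in the WT range itself, so HET arrays at the WT level are counted too. The HET mean passed 50% of the KO change for 4 falls, Slc7a11, Tmem243, Fam171b and P3h2, and for 3 rises, Veph1, Sst and Gria1. For Sst this rested on HET3, without which the share was 31.7%, and the shares of Fam171b and Gria1 also came under 50%, at 46.5% without HET1 and 48.4% without HET2. HET means on the far side of WT belonged to the other falls, among them Apoe, Cst3, Fmo1 and Me1, and to the 3 other rises, Nid1, F5 and Igfbp5. Both changes are measured from the same WT arrays, so these positions are a description and no test.

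**Figure D5:**
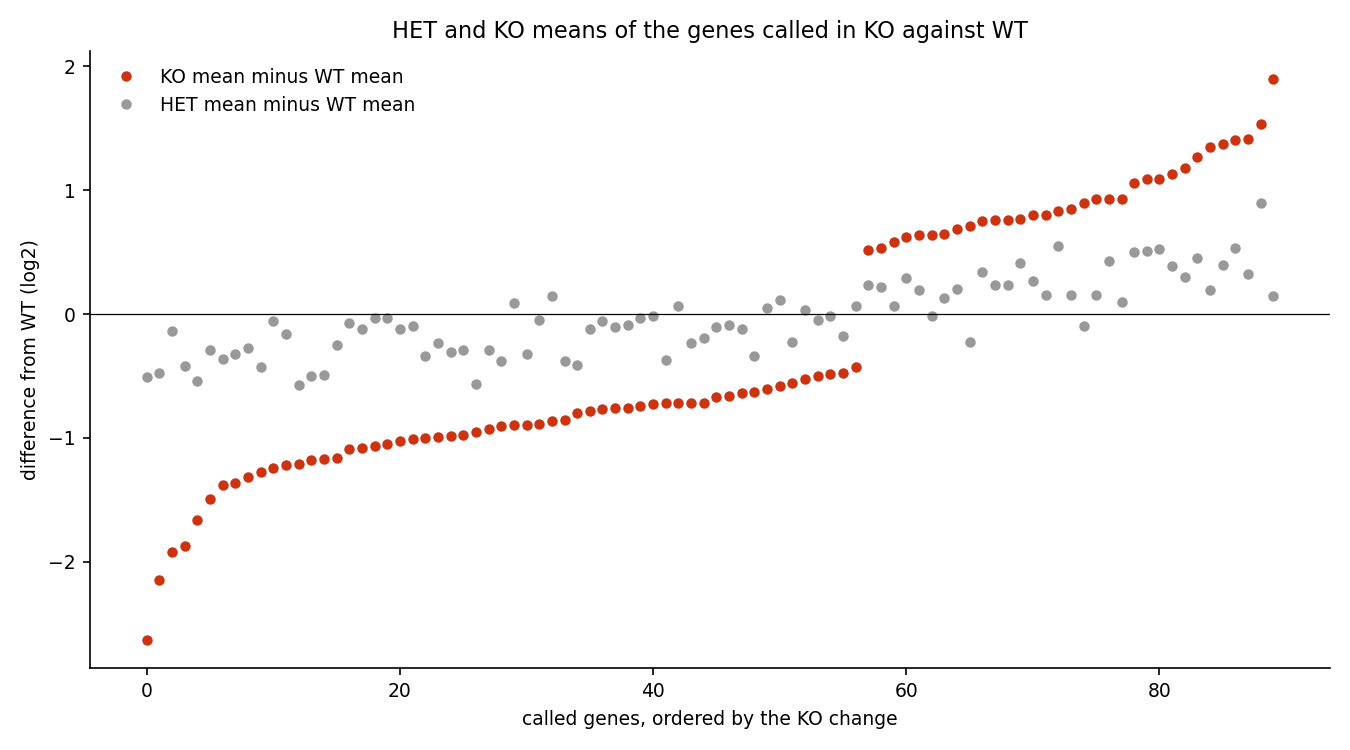
The 90 genes called in KO against WT are ordered along the x axis by their KO change, with the KO mean minus WT mean and the HET mean minus WT mean as points (y axis, log2). HET points lie mostly between 0 and the KO point, nearer to 0, for both the 57 falls and the 33 rises.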

How the data were processed

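Ventricular zone RNA of 3 WT, 3 HET and 3 KO samples was amplified (NuGEN whole transcript) and put on 1 array each, per the labels' protocols. The deposited values are on a log2 scale and cover 28940 probe sets. RMA, affy and limma, with no version, stand in the submitters' processing notes. RMA corrects background, normalises between arrays and fits each probe set by median polish, which can give arrays exactly equal values: this held in some pair of arrays for 62.9% of genes. Array medians lay between 5.80 and 5.92. The depth of an array is its number of probes, and precision here rests on 3 arrays per genotype.

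Probe sets were named from the platform annotation: 21789 had 1 symbol, 1621 several and 5530 none. Genes with several probe sets (999) took that with the highest mean over the 9 arrays, which left 19938. Tests used R 4.3.3 and limma 3.58.1 (lmFit, eBayes, two-sided) on all 9 arrays with a mean per genotype, and Benjamini-Hochberg adjustment over all genes. A call is an adjusted p under 0.05. The fit was tested on simulated data. SE is limma's moderated standard error, and a fold is 2 to the power of the log2 change. Lists are described by counts and medians, without set tests; kinases and binding proteins caught by a name pattern were taken out of the ribosomal and collagen lists.

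Every called gene with a proper name was named, the 12 largest in each direction with every array, and of lists the leading members and those with the smallest p. Members and lists were chosen with earlier results of these data known. Genome order came from the GRCm38.p6 gene table (names only), and promoters, found for 71 of the 90 called genes, from RefSeq. Alternatives tried were a block on replicate number, fewer arrays, other weights, variance settings, filters, probe set rules, scalings and thresholds, and the Xist level as a covariate.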

Additional observations from a re-analysis of the deposited data

Results flagged for a closer look

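Probe sets outside the gene table also carried a signal that separated KO from WT. With every probe set tested, 7 of the probe sets without exactly 1 gene symbol were called by limma with Benjamini-Hochberg adjustment, 4 lower and 3 higher in KO, and none of the 7 is named by the annotation used here. The lowest, probe set 10453487, was read at 8.44, 8.26 and 7.81 in WT and 5.47, 5.54 and 5.66 in KO, a log2 change of -2.61 (SE 0.23, adjusted p = 0.0017), about the size of the measured change of Hgf. The highest, probe set 10428619, was read at 6.83, 6.68 and 6.51 in WT and 8.40, 7.70 and 7.68 in KO, a log2 change of 1.25 (SE 0.18, adjusted p = 0.027). These probe sets may read named genes already described or others, which was not tested.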

How the results depend on the processing

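All 90 called genes kept their direction in each of the settings in which they were tested, 2061 pairs of gene and setting, and in 627 of these pairs the call was lost. Fits that left out arrays could not turn a direction, since the WT and KO arrays of these genes do not overlap. Settings that changed only the variance or the threshold could not do so either, so the kept direction is no support. Calls numbered 33 when the HET arrays were left out of the fit (10 higher, 23 lower), 151 with array weights (63 higher, 88 lower) and 50 without HET replicate 1 and KO replicate 2 together (24 higher, 26 lower). Leaving out 1 array gave 23 to 77 calls, 8 to 29 higher and 15 to 48 lower, with the fewest without WT replicate 1. The other settings gave 67 to 125 calls. Prdm16 was not called without the HET arrays (log2 change -1.38, adjusted p = 0.080), and its change lay between -1.54 and -1.19 without 1 array (lowest without KO replicate 2, highest without KO replicate 1), with the call lost without WT replicate 1 (adjusted p = 0.076) or WT replicate 2 (0.069). With the replicate number as a block, 72 genes were called (24 higher, 48 lower), 63 of them among the 90; same-numbered arrays did not deviate together (correlations from -0.34 to 0.06), so the number does not pair them. The limit is 3 arrays a genotype, of unknown pooling, and dim genes, whose values mix background and transcript.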

Other observations

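Some genes differed by at least 2-fold without passing the test, and a few of them belong to kinds described above. They were picked after their values were seen. Nr2f2, the COUP-TFII regulator of caudal ganglionic eminence interneurons, was read at 6.20, 6.38 and 6.76 in WT, 7.26, 6.55 and 6.57 in HET and 7.91, 7.28 and 7.73 in KO (log2 change 1.19, SE 0.22, limma adjusted p = 0.057). Lgi1, a secreted synaptic protein, was read at 4.74, 4.78 and 4.97 in WT against 6.36, 5.80 and 5.69 in KO (adjusted p = 0.21) and Zdhhc2, a palmitoyl transferase, at 6.60, 6.59 and 6.75 in WT against 8.29, 7.32 and 7.51 in KO (adjusted p = 0.15), both without overlap. Crabp1, a retinoic acid binding protein, was read at 8.36, 9.10 and 9.38 in WT against 11.29, 9.86 and 9.10 in KO, with a HET array at 10.78 and KO1 highest. Of the 50 genes that differed by at least 2-fold, 35 were called.

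Genes near Prdm16 are given as a description, since no test of the neighbourhood was run. Of the 147 measured protein-coding genes within 100 places of Prdm16 in gene order, 19 (12.9%) had an unadjusted p under 0.05, against 6.15% over all genes, and 2 (1.36%) were called, against 0.451%. Among the 50 nearest, 2 had such a p. The 2 called genes, Draxin and Fbxo2, lie 75 and 71 places away. Fv1, a retrovirus restriction gene 83 places away, was read at 8.51, 8.17 and 7.62 in WT, 8.63, 8.39 and 7.63 in HET and 9.06, 9.08 and 9.31 in KO without passing (adjusted p = 0.21). Draxin had exactly the same value in all 3 HET arrays, and some pair of arrays held equal values for 14.4% of called genes and 62.9% of all genes.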
